A study of Drosophila melanogaster with 16 samples.

Results

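Heat-shocked embryos of a fly line that carries the homeobox gene otd under a heat shock promoter were compared with heat-shocked wild-type embryos to find transcripts that respond to otd. The comparison used 7 of the 16 arrays of the study, 4 of hsp-otd and 3 of heat-shocked wild type, and every probe set other than the array's controls. The hsp-otd line is 5A and the wild type is Oregon-R. Both groups came from 12 h collections aged for 4 h at 25 °C. They then had 25 min at 37 °C and a recovery of 25 min at 25 °C, and were at stages 10 to 17. The 5 arrays of untreated Oregon-R embryos, also at stages 10 to 17, served as a check on the heat shock, and the 4 arrays of heat-shocked hsp-Otx2 embryos, which carry the human relative of otd, shared the estimate of spread. For untreated embryos the labels state neither how long eggs were collected nor how long they aged. A heat shock promoter acts in most cells, so otd was not limited to the places where the embryo normally uses it. Embryos of the hsp-otd line without heat shock were not analysed here, so an effect of the line's genetic background and an effect of otd cannot be told apart. Nothing in the labels says whether replicates came from separate collections of embryos, and the p-values measure the spread between these arrays, which may be technical.

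The gene otd, whose current symbol is oc, encodes a homeodomain transcription factor. In the fly embryo it is known for patterning the anterior head and brain and for a role at the ventral midline, and its vertebrate relatives act in the forebrain and midbrain. Heat shock itself induces chaperone genes and reduces many other transcripts, so a line that responded less to heat would differ from heat-shocked wild type in genes that have nothing to do with otd. Each transcript was for this reason set against untreated wild type as well.

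The oc transcript (probe set OC_at) read 6448, 6246, 6213 and 6385 in normalized intensity in the 4 hsp-otd arrays. In heat-shocked wild type it read 234.9 and 76.7 in replicates 1 and 3 and lay below the floor of 20 in replicate 2. In untreated wild type it lay below the floor in 4 of 5 arrays and read 21.2 in the other. All hsp-otd arrays were far above all wild-type arrays, and the log2 fold change was 6.47 over heat-shocked (SE 0.54, adjusted p = 4.29e-07) and 8.29 over untreated wild type (adjusted p = 1.23e-09). Both values depend on the floor, because 1 heat-shocked array lay below it and so did 4 of 5 untreated arrays. The second value was in effect set by the floor.

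Both lines had taken the heat shock. All 13 measured heat-inducible heat shock genes were higher than in untreated wild type in hsp-otd and in heat-shocked wild type, with medians of 3.98 and 3.73 on the log2 scale, where 15.7% and 10.3% of all probe sets were called higher. The chaperone gene Hsp68 read 16741, 16641, 16641 and 14921 in hsp-otd and 16386, 17299 and 16471 in heat-shocked wild type, and was below the floor in every untreated array. Between the heat-shocked groups 0 of the 13 rose and 2 fell, Hsp83 by 0.52 (SE 0.11, adjusted p = 0.00258) and Hsp23 by 0.57 (adjusted p = 0.0486). Hsp23 no longer passed in 13 of the alternative settings, among them leaving out any 1 of the heat-shocked wild-type arrays. Relative to the median of all probe sets, the list's median was 0.05, with median scaling -0.33 (1 higher and 4 lower) and without normalization -0.25 (3 higher and 0 lower).

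Of 12301 probe sets tested, 3610 (29.3%) were called between hsp-otd and heat-shocked wild type at an adjusted p below 0.05, 1943 higher (15.8%) and 1667 lower (13.6%). With median scaling 2358 were higher and 1296 lower, and without normalization 3537 and 273, where the median of all probe sets was shifted by 0.676 on the log2 scale. Lim1, Cdk4, PolA1, opa, eve, nAChRbeta1, Actn, Pxn and SPARC, given as lower in the lists, were higher without normalization and did not pass the test there. The called probe sets belong to 3158 named genes. They fell into 3 classes when set against untreated wild type, from which 29.6% of all probe sets differed in hsp-otd (13.9% lower) and 22.5% in heat-shocked wild type (12.2% lower). In 1666, or 46.1% of those called and 13.5% of those tested, hsp-otd lay outside both wild types, that is, it also differed from untreated wild type in the same direction (908 higher, 7.38% of those tested, and 758 lower, 6.16%). Of these, heat-shocked wild type was not called against untreated wild type in 1324, was called in the same direction in 177 and in the opposite one in 165. Whether the 177 show only a larger heat change was not tested. In 1088, or 30.1% of those called and 8.84% of those tested, hsp-otd undid part or all of a called heat change, and 927 of these were not called against untreated wild type. Heat change here means heat-shocked against untreated wild type. Untreated embryos have no stated collection or ageing time, so heat and embryo age cannot be told apart in it. The word undid describes where hsp-otd lay and names no cause. The other 856 were called in neither of the comparisons with untreated wild type. These comparisons share arrays, so the class sizes describe the probe sets and carry no test of their own.

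**Figure D1:**
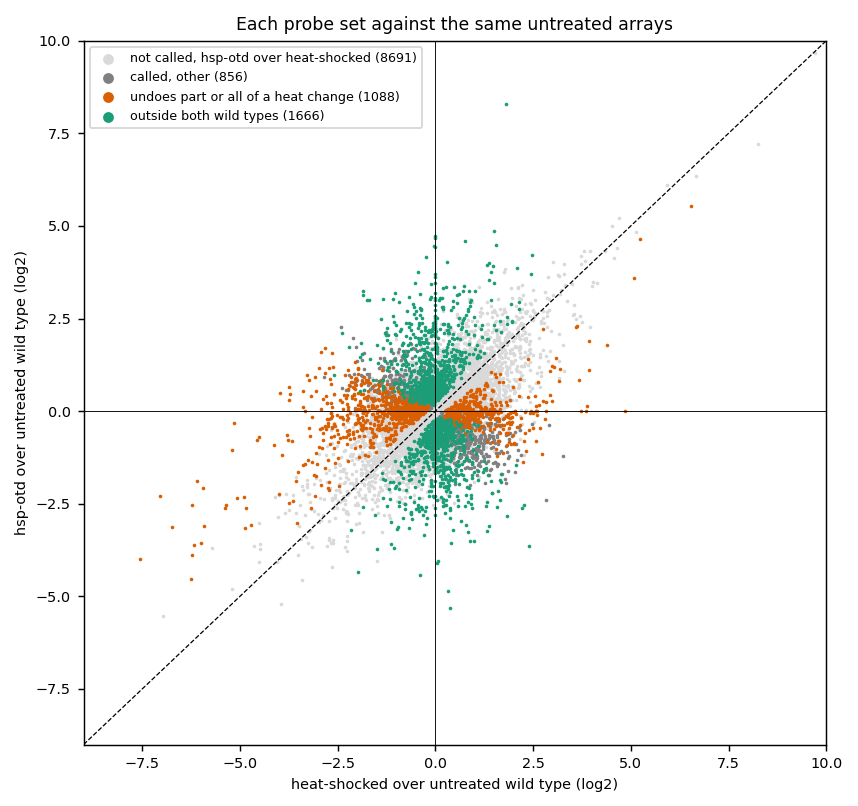
Log2 fold change over untreated wild type of hsp-otd (vertical axis) against that of heat-shocked wild type (horizontal axis), 1 dot per tested probe set, coloured by class, with the same untreated arrays on both axes. On the dashed line both heat-shocked groups differ equally from untreated embryos. The 1666 green probe sets lie off this line on the far side of both wild types, and the 1088 orange ones lie mostly between the line and the horizontal axis, nearer to untreated embryos than heat-shocked wild type was.

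Array brightness moved with the groups. Mean deposited intensity was 785.9 to 997.8 in hsp-otd, 460.2 to 650.2 in heat-shocked wild type, 598.7 to 662.2 in untreated replicates 1 to 3 and 950.6 and 999.1 in untreated replicates 4 and 5. Brightness and group cannot be told apart between hsp-otd and heat-shocked wild type. Within the untreated group brightness differed between replicates 1 to 3 and replicates 4 and 5. Any other difference between these replicates cannot be told apart from it. With the brighter untreated arrays alone 1170 probe sets lay outside both wild types, with the dimmer ones alone 2087, and 946 (56.8% of the 1666) did so with all 5 arrays and with each subset. Rank correlations were 0.956 to 0.966 among hsp-otd arrays, 0.902 to 0.926 among heat-shocked wild-type arrays and 0.85 to 0.905 between these groups.

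Some of the largest changes followed this split. PIG-O, a gene of GPI anchor synthesis, read 851.4, 348.4, 896.8 and 811.1 in hsp-otd and lay under 20, the floor, in heat-shocked wild type and the dimmer untreated arrays, but the brighter ones read 288.4 and 863.2. The kinase gene GckIII was split in a like way, at 643.8 to 776.3 in hsp-otd, 405.1 and 694.8 in the brighter untreated arrays and at most 46 in the dimmer ones and in heat-shocked wild type. Neither was called against the brighter untreated arrays (0.45 and 0.37, adjusted p = 0.621 and 0.592). In the other direction jus was below the floor in all 4 hsp-otd arrays and in both brighter untreated arrays, and read 862.3 to 2062 in heat-shocked wild type and 1192 to 1499.5 in the dimmer untreated arrays. Zip42C.1 and 1 probe set of Ppn had a similar pattern. A second jus probe set was lower than in heat-shocked (-2.04) but higher than in untreated wild type (1.89). The hsp-Otx2 arrays had mean intensities of 609.3 to 1016. In them PIG-O was always below the floor and GckIII read 238.8 to 517. There jus read 408.4, 901.9 and 214.4 in replicates 1, 2 and 4, and was below the floor in replicate 3, the brightest. The part of array brightness in the values of these genes was not tested.

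Among the genes outside both wild types, Cortactin, an actin regulator, stood out for its level. It read 7646, 9499, 9131 and 9367 in hsp-otd, 1056, 1176 and 732.4 in heat-shocked and 802 to 1269 in untreated wild type (3.20 over heat-shocked, SE 0.17, adjusted p = 1.8e-09, and 3.09 over untreated). The groups did not overlap, and the difference was 2.81 from the brighter and 3.28 from the dimmer untreated arrays. The Hedgehog receptor gene ptc read 366.5, 403.7, 438.2 and 527.5 in hsp-otd. It was below the floor in every other array of the study, so it was at least 21.5-fold higher than in each wild type. Probe sets were tested if above the floor in 3 or more arrays, and ptc met this only through hsp-otd. CycE, whose cyclin drives entry into S phase, read 993.8, 925.8, 906.7 and 848.4 in hsp-otd, with 1 of 3 heat-shocked and 2 of 5 untreated arrays above the floor. All 3 CycE probe sets rose, by 4.38 to 4.48 over heat-shocked wild type, though the named one was not called against the brighter untreated arrays (3.43, adjusted p = 0.0501). In hsp-Otx2 this probe set read 98.3 to 709.1, and hsp-otd was not called over hsp-Otx2 (1.34, adjusted p = 0.318). Cortactin read 950.2 to 1140 in hsp-Otx2.

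The acetylcholine receptor subunit gene nAChRalpha3 read 174.5, 895.4, 856.6 and 571.6 in hsp-otd and was below the floor in all 8 wild-type arrays, at least 26.3-fold higher than in either group. The hsp-otd replicates spread widely for this gene, and all 4 were above the wild types. Obp56a, an odorant-binding protein gene, read 1976 to 2112 in hsp-otd, 140.3 to 473.9 in heat-shocked and 295.8 to 426.2 in untreated wild type. Among the cytochrome P450 genes, Cyp6a8 read 3064 to 3528 in hsp-otd and 705 to 953.1 in all 8 wild-type arrays, and Cyp310a1 read 1226 to 1283 against 131.9 to 264.2. Further genes that rose beyond both wild types were Uhg1, a host gene of small nucleolar RNAs (3.76 over heat-shocked wild type), Ote, which encodes an inner nuclear membrane protein (at least 18.3-fold), Clbn (at least 11.6-fold) and RalGPS, an exchange factor gene for Ral (1.88). No heat-shocked wild-type array reached the floor for Ote or Clbn. In hsp-Otx2 Ote read 102.1 to 413.8 and RalGPS 840.3 to 931.8, and neither was called between the transgenic lines (adjusted p = 0.566 and 0.198). Uhg1 was below the floor in every hsp-Otx2 array, and Clbn was higher in hsp-otd than in hsp-Otx2 (2.55, adjusted p = 4.18e-05).

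Among transcripts that fell beyond both wild types, Drsl5, which encodes a drosomycin-like peptide, read 190.6, 205.2, 176.8 and 190.7 in hsp-otd. It read 6519, 6906 and 6967 in heat-shocked wild type and 5301 to 5925 in untreated wild type, and the difference was -5.16 (SE 0.17, adjusted p = 6.78e-12) and -4.84. It was also low in hsp-Otx2, at 76.8 to 165.5. OtopLa, a proton channel gene, was below the floor in all 4 hsp-otd arrays and read 922.5 to 1119 in heat-shocked and 692.8 to 987.8 in untreated wild type, at least 51.5-fold and 40.02-fold lower. A second OtopLa probe set did not pass (0.57, adjusted p = 0.42). The metabolic genes Ugt35A1, a glucuronosyltransferase gene, and Gcat, which encodes an enzyme of threonine breakdown, fell by 2.05 and 1.97 over heat-shocked and by 2.16 and 2.15 over untreated wild type. In both genes no hsp-otd array reached the lowest wild-type array. Dim transcripts of the homeobox genes otp and tin also fell. In heat-shocked wild type otp read 168.5 to 343.4 and tin 110.2 to 227, and in hsp-otd otp was below the floor in 3 of 4 arrays and tin in all 4. A second otp probe set did not pass (-0.37, adjusted p = 0.154).

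**Figure D2:**
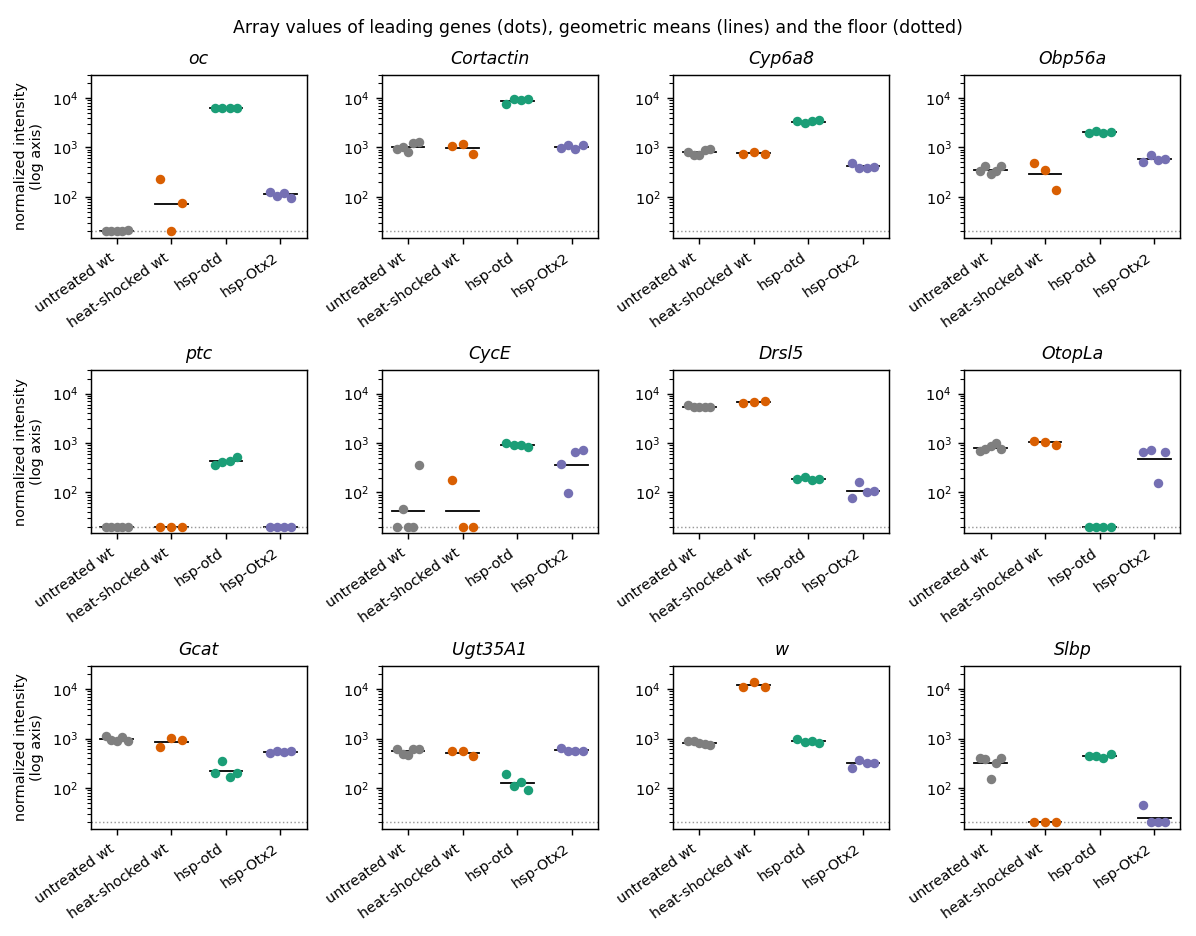
Normalized intensity on a log axis of 12 genes in each array, with dots for arrays, a black line for the geometric mean of a group and a dotted line at the floor of 20, to which lower values were raised. In the panels of oc, Cortactin, Cyp6a8, Obp56a and ptc the 4 hsp-otd arrays lie above all 8 wild-type arrays, in Drsl5, OtopLa, Gcat and Ugt35A1 below them. In the panels of w and Slbp heat-shocked wild type is the group that differs, and hsp-otd lies with untreated embryos.

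In the class that undid a heat change, 927 of 1088 probe sets were not called against untreated wild type, and 161 still were, on the side of the heat change. Slbp, whose product binds histone mRNA, read 448.1, 439.3, 409.5 and 480.2 in hsp-otd, was below the floor in all 3 heat-shocked wild-type arrays and read 151.2 to 411.9 in untreated embryos. It was at least 22.2-fold higher in hsp-otd than in heat-shocked wild type and did not pass against untreated wild type (0.49, adjusted p = 0.356). GILT3 and feo, a gene of the cytokinetic spindle, followed the same pattern. Muc91C, a mucin gene, stayed well under untreated embryos, at 519.5, 597.2, 501.2 and 565.9 in hsp-otd and 2165.9 to 3158.5 in untreated wild type, and no heat-shocked wild-type array reached the floor (-2.29 against untreated, adjusted p = 7.02e-09). TwdlV, a cuticle gene of the Tweedle family, did so too (-1.89 against untreated, adjusted p = 1.26e-05). The gene w, the eye pigment transporter, had the opposite one, with 11288, 13808 and 10839 in heat-shocked wild type, 829.2 to 964.8 in hsp-otd and 748.2 to 904.1 in untreated embryos. The hsp-otd line differed from heat-shocked wild type in w by -3.74 (SE 0.13, adjusted p = 6.78e-12), while hsp-otd and untreated embryos differed by 0.13 (adjusted p = 0.425), and w was 254.4 to 372.9 in hsp-Otx2. Both transgenic lines were thus far below heat-shocked wild type, and for w an effect of otd and one of line background cannot be told apart.

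Gene lists were described by their counts, with 1 probe set a gene. Of 10115 genes tested, 16.6% were higher and 13% lower in hsp-otd than in heat-shocked wild type. In head and brain patterning, the process otd is best known for, 1 gene rose and 2 fell of 22 (median 0.14). The homeobox gene hbn was higher by 0.88 (adjusted p = 0.0129), and Rx and Lim1 were lower by values of -1.95 and -0.39 (adjusted p = 0.0135 and 0.0426). Lim1 no longer passed in 13 of the alternative settings, and its other 2 probe sets did not pass (-0.08 and 0.02, adjusted p = 0.863 and 1). Without replicate 3 of heat-shocked wild type 0 of the list were higher, hbn being lost, and 1 lower, and 1 was lower without replicate 1 or 4 of hsp-otd. These shares of 4.55% and 9.09% lie below those of all genes. The photoreceptor and eye list had 0 higher and 2 lower of 16, inaC and Rh2, both near the floor in hsp-otd, and 1 was lower without replicate 1 or 2 of heat-shocked wild type. Proneural and neuroblast genes had 4 higher and 2 lower of 22, led by mira, which directs fate determinants in dividing neuroblasts (2.00, adjusted p = 3.77e-05). The count of higher genes was 1 without replicate 2 of heat-shocked wild type and 2 without replicate 3 of hsp-otd. In mira hsp-otd read 1565 to 2282 and untreated embryos 1439 to 1880.4, against 306.3 to 814.4 in heat-shocked wild type.

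**Figure D3:**
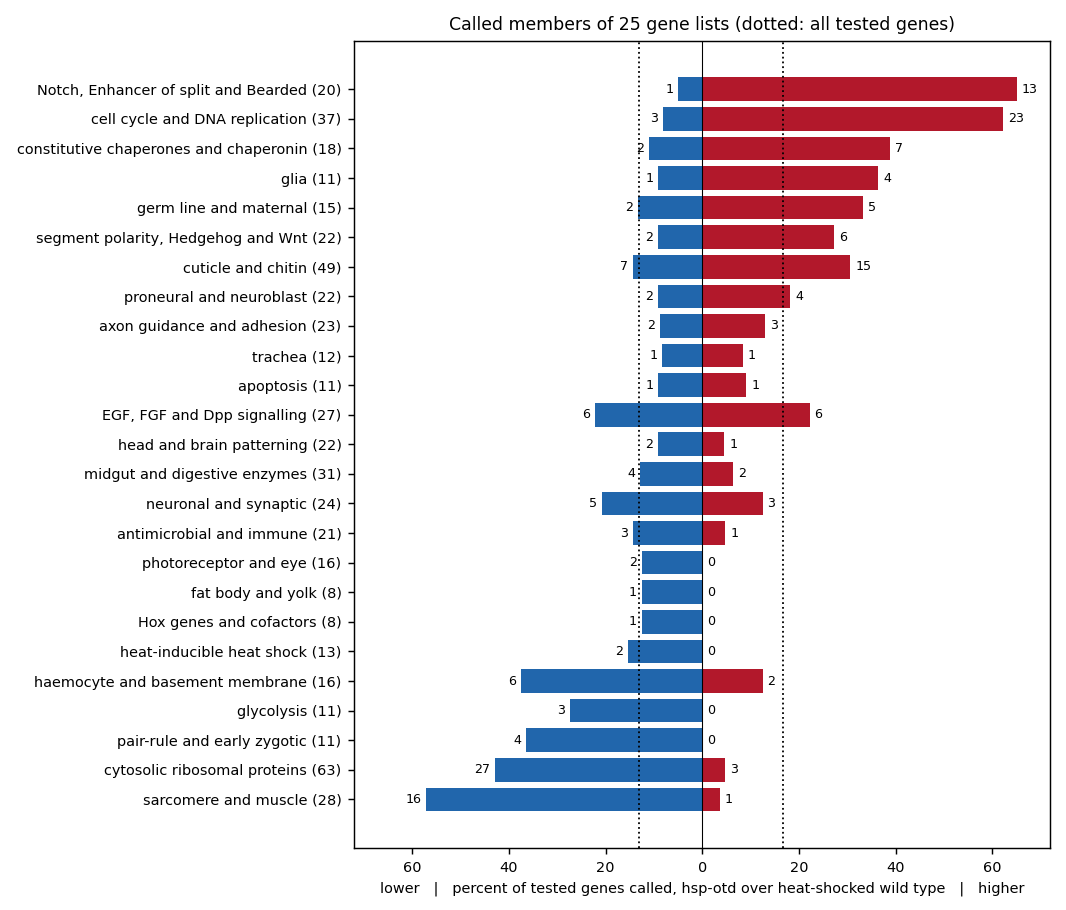
Percent of the tested members of 25 gene lists called higher (right, red) and lower (left, blue) in hsp-otd than in heat-shocked wild type, with the number of genes at each bar and the number tested in brackets. Dotted lines mark all tested genes, 16.6% higher and 13% lower. The Notch and cell cycle lists reach 65% and 62.2% higher, the sarcomere list 57.1% lower.

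Cell cycle and DNA replication genes were higher, with 23 of 37 up and 3 down (median 0.93). Against untreated wild type 12 were higher and 3 lower, and 12 lay outside both wild types on the high side, while 10 undid a heat change. CycB, a mitotic cyclin, read 5449, 5307, 5496 and 5536 in hsp-otd, 2768 to 3720.4 in heat-shocked and 2254 to 3433 in untreated wild type. The replicative helicase subunit Mcm7 and the ribonucleotide reductase subunit RnrL also lay outside both (1.11 and 1.69 over heat-shocked, 0.65 and 1.07 over untreated). PCNA, the sliding clamp of DNA polymerase, and Cdk2 did not pass against untreated wild type (0.21 and -0.07) and were higher than in heat-shocked wild type by 1.45 and 1.20. Of the genes lower in hsp-otd, Cdk4 changed by -0.53, PolA1 by -0.61 and PolD1 by -0.98, the first and second outside both wild types. PolA1 was not called against the brighter untreated arrays alone (-0.18, adjusted p = 0.511). Only 1 gene was lower without replicate 2 of heat-shocked wild type.

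The Notch pathway passes signals between neighbouring cells, and its Enhancer of split and Bearded family targets set cell fates in the nervous system. Of 20 genes of this list 13 were higher and 1 lower (median 0.76), and 12 of these undid a heat change. E(spl)m5-HLH read 300.3 to 425.4 in hsp-otd, was below the floor in all 3 heat-shocked wild-type arrays and read 333.6 to 1189.7 in untreated embryos. Tom was 5036 to 5336 in hsp-otd, 1588 to 2641 in heat-shocked and 5004 to 5986 in untreated embryos, so that hsp-otd overlapped untreated embryos alone. Su(H), the transcription factor of the pathway, lay outside both wild types, higher by 2.81 over heat-shocked and 2.18 over untreated wild type. The gene mam, which encodes a coactivator of Notch targets, went against the list (adjusted p = 0.00799), at 367.5 to 620.2 in hsp-otd against 736.2 to 1046 in heat-shocked wild type.

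**Figure D4:**
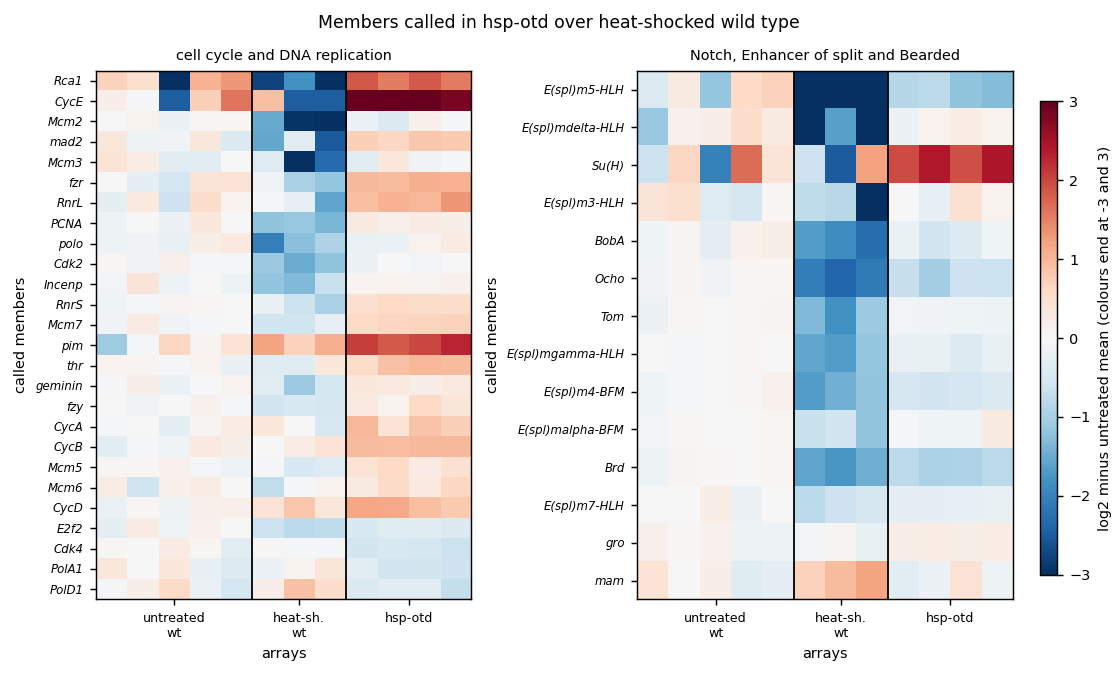
Log2 normalized intensity minus the mean of the untreated arrays, for the called members of the cell cycle list (left, 26 genes) and the Notch list (right, 14 genes), with a column for each array and groups parted by black lines. Colours end at -3 and 3. Most Notch list genes are blue in heat-shocked wild type and near white in hsp-otd, while CycE, pim, fzr and Su(H) are red in hsp-otd.

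Segment polarity, Hedgehog and Wnt genes had 6 higher and 2 lower of 22 (median 0.51). Besides ptc, which was tested only through its hsp-otd arrays, the receptor gene fz lay above both wild types (0.56 and 0.79). Wnt4, a Wnt ligand gene, lay below both, at 462.2 to 511.2 in hsp-otd, 919.2 to 1188 in heat-shocked and 667.8 to 755.2 in untreated wild type. The count of lower genes was 1 with median scaling, without replicate 1 of heat-shocked wild type or without replicate 1, 2 or 4 of hsp-otd. The Hedgehog pathway transcription factor ci undid a fall under heat (0.99 over heat-shocked, -0.04 over untreated). Pair-rule and early zygotic genes had 0 higher and 4 lower of 11, ftz, opa, eve and dpp, and Hox genes and cofactors had 0 higher and 1 lower of 8, Abd-B (-1.61), of which a second probe set did not pass (-1.10, adjusted p = 0.0647). The Hox count was 2 without replicate 2 of heat-shocked wild type, and the call of dpp was lost without replicate 3. The median of these lists relative to all probe sets was -0.48 and -0.33, and without normalization -0.29 and -0.27. The ftz probe set was below the floor in every hsp-otd array. It read 407.9 to 1051 in heat-shocked and 38 to 436.6 in untreated wild type. The brighter untreated arrays read 52.6 and 38, and against these alone ftz was not called (-1.16, adjusted p = 0.225).

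In the glia list 4 genes were higher and 1 lower of 11 (median 0.23), and 0 were lower without replicate 2 of heat-shocked wild type. The glial determinants gcm and gcm2 were higher by 1.57 and 2.63 over heat-shocked wild type, gcm2 also over untreated embryos (1.34), where gcm did not pass (0.16). Over the brighter untreated arrays alone gcm2 did not pass (0.92, adjusted p = 0.185). Neuronal and synaptic genes had 3 higher and 5 lower of 24, and all 8 lay outside both wild types. Those higher were nAChRalpha3 and the vesicle fusion genes Rop and Syx1A, and those lower included the receptor subunit nAChRbeta1 and Snap25, another fusion gene (-0.47 and -0.77). A second nAChRbeta1 probe set did not pass (-0.59, adjusted p = 0.107). The count of lower genes was 1 without replicate 2 of heat-shocked wild type, 3 without its replicate 3 or without replicate 1, 2 or 4 of hsp-otd, 2 with 1 variance factor per group and 0 without normalization. Germ line and maternal genes had 5 higher and 2 lower of 15, and the 5 higher, stau, aub, pgc, vas and tud, all lay outside both wild types. With the brighter untreated arrays alone aub no longer did so (0.44, adjusted p = 0.118). The count of lower genes was 1 with any 1 heat-shocked wild-type array left out, and the call of tud was lost without replicate 3. The germ cell helicase gene vas read 221.2 to 276.2 in hsp-otd, 65.3 to 138.2 in heat-shocked and 54.4 to 110.8 in untreated wild type.

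Sarcomere and muscle genes were lower, with 16 of 28 down and 1 up (median -0.56), and 10 of the 16 lay below both wild types. Relative to all probe sets the median was -0.56, and -0.45 without normalization, where 2 were lower. Prm, the paramyosin gene, read 1654, 1528, 1399 and 1797 in hsp-otd, 3358 to 4483 in heat-shocked and 3339 to 4807 in untreated wild type (-1.25, SE 0.12, adjusted p = 2.72e-06). Actn, which anchors thin filaments, read 5059 to 5375 against 7179 to 8681 in all wild-type arrays. The summed level of 5 measured muscle markers was 22652 to 24562 in hsp-otd, 26469 to 28765 in heat-shocked and 27871 to 30493 in untreated wild type. In whole embryos fewer cells of a type and less RNA per cell cannot be told apart. Mf, another muscle gene, went against the list (0.31) and undid a fall under heat, but a second probe set did not pass (0.18, adjusted p = 0.435).

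Cuticle and chitin genes had 15 higher and 7 lower of 49 (median 0.09), and 14 undid part or all of a heat change. The count of lower genes was 2 with median scaling, 0 without normalization and 4 without replicate 1 or 3 of heat-shocked wild type, and that of higher genes 24 without normalization. Against untreated wild type 35 of the 49 were lower in hsp-otd. Cpr65Ea, a cuticle protein gene, read 2595, 2517, 2511 and 2584 in hsp-otd, 361.4 to 425.2 in heat-shocked and 11985 to 14898 in untreated wild type, so that hsp-otd lay between them without overlap. TwdlD, of the Tweedle family, lay between them as well, at 1837 to 1976 against 1226 to 1379.6 and 10443 to 12112. Ddc, an enzyme gene of cuticle hardening, was the only member above both wild types. It was at least 8.83-fold over heat-shocked, with a log2 fold change of 2.39 over untreated. Of the 7 lower members 5 lay below both wild types. With the brighter untreated arrays alone obst-A, obst-B, Gasp and Cht7 lay below both (-2.11, -0.97, -1.30 and -0.87 over these arrays). The listed Ccp84Ag probe set did so too (-1.23), but other Ccp84Ag probe sets rose over heat-shocked wild type (0.82 and 3.70). The cuticle list, which also marks late embryos, summed to 77968 to 79190 in hsp-otd, 72152 to 74452 in heat-shocked and 171364 to 194851 in untreated wild type, and the part of embryo age in these values was not tested.

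**Figure D5:**
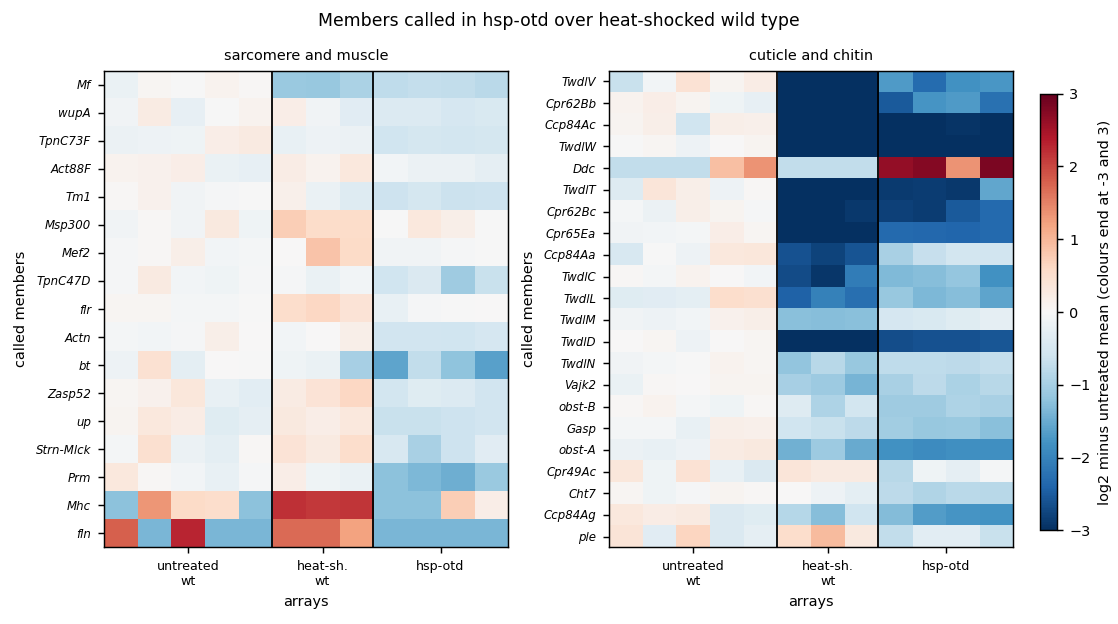
Log2 normalized intensity minus the mean of the untreated arrays, for the called members of the sarcomere list (left, 17 genes) and the cuticle list (right, 22 genes), with a column for each array. Colours end at -3 and 3. Prm, Actn and bt are bluer in hsp-otd than in heat-shocked wild type, and many cuticle genes are blue in both heat-shocked groups, less so in hsp-otd.

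Constitutive chaperone genes had 7 higher and 2 lower of 18 (median 0.20), and the 7 higher were also above untreated wild type. In heat-shocked wild type itself 13 of the 18 were above untreated wild type and 0 below (median 0.67), where 10.3% of all probe sets were called higher. Whether the 7 show only a larger heat change was not tested. The count of genes higher than in heat-shocked wild type was 11 with median scaling and without normalization. The 7 were Hsp110, Cdc37, Gp93 and the chaperonin subunits CCT1, CCT2, CCT4 and CCT5 (0.24 to 0.54 over heat-shocked wild type). Cdc37 did not pass with replicate 2 of heat-shocked wild type or replicate 1, 2 or 4 of hsp-otd left out, CCT1 did not in 3 such settings and CCT5 with replicate 3 of heat-shocked wild type left out. Hsc70-3, the chaperone of the endoplasmic reticulum, read 4910.3 to 5154 in hsp-otd, 12059.7 to 13091 in heat-shocked and 3779 to 6405 in untreated wild type (-1.35, adjusted p = 7.53e-07). Cytosolic ribosomal protein genes had 3 higher and 27 lower of 63 (median -0.30), of which 8 lower lay outside both wild types. With median scaling 0 were higher and 29 lower. Relative to all probe sets the median was -0.30, with median scaling -0.85 and without normalization -0.78. The count of lower genes was 10 without replicate 3 of heat-shocked wild type, 14 without replicate 1, 10 and 13 without replicates 3 and 4 of hsp-otd, 12 with 1 variance factor per group and 8 without normalization. In RpS3 hsp-otd read 9478 to 12081, heat-shocked wild type 19311 to 23188, the dimmer untreated arrays 19764 to 19973 and the brighter ones 12081 and 12177. The RpS3 values thus moved with array brightness in untreated embryos, and its part in the change was not tested.

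Haemocyte and basement membrane genes had 2 higher and 6 lower of 16 (median -0.35 relative to all probe sets, and -0.20 without normalization, with 0 lower), and 5 of the 6 lay below both wild types. Pxn, a haemocyte peroxidase gene of the matrix, read 742.5 to 905.4 in hsp-otd, 1046 to 1569.8 in heat-shocked and 1138 to 1455 in untreated wild type. SPARC, a matrix protein gene, was lower by values of -0.37 and -0.53. The summed level of 3 measured haemocyte markers was 2962 to 3079 in hsp-otd, 3439 to 3815 in heat-shocked and 2732 to 3460 in untreated wild type. Of these markers Pxn was called lower than in heat-shocked wild type and crq higher, so they did not fall together.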

How the data were processed

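Single-colour expression arrays were made from RNA of whole embryos, 1 array per replicate. Each extraction used 200 mg of embryos and cDNA synthesis 25 µg of RNA, per the labels' protocols. The deposited intensities are on a linear scale, 1 value a probe set, from -3962 to 34260. How the authors read or scaled the arrays before deposit is not given in the sources. Probe sets were named from their identifiers through a table of current gene names: of 14038 without controls, 13077 had 1 symbol, 471 several and 490 none. Groups came from the sample titles.

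The deposited intensities were quantile normalized over 16 arrays, raised to a floor of 20 and put on the log2 scale. The fit held the 12301 probe sets with a value over 20 in 3 or more arrays, and 1737 were not tested. It used limma (version 3.58.1, R 4.3.3) with lmFit and a trended eBayes, and 1 coefficient per group. A call is a Benjamini-Hochberg adjusted p below 0.05 over all probe sets tested. Where all arrays of a group lay at the floor, they show no spread and p can be too small. Such a fold is given as "at least" the ratio to the floor. Precision is limited by how few arrays a group has. The code was tested on simulated data, where the direction and size of the estimates came back but many smaller changes were not called. A first bar on the share of changes recovered was missed and was replaced after that result was seen. A gene that did not pass may thus still have changed.

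Members and the 25 lists were chosen with earlier results of these data known. Named genes were oc, then genes called with no overlap of the hsp-otd and heat-shocked arrays: the 10 highest and 10 lowest, the 12 and 12 furthest outside both wild types, the 6 and 6 that most undid a heat change, and up to 4 members per list by adjusted p with any against the majority. A further 12 and 12, outside both and above the floor in every array, and 17 list members (CCT1, CCT2, CCT5, Cdc37, CycB, Ddc, Hsp68, RnrL, SPARC, Snap25, Su(H), TwdlD, bt, fz, fzr, pim and tud) were chosen after their values were seen. Alternatives were the normalization, floor, filter, groups fitted, array weights, a replicate block and each array left out.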

Additional observations from a re-analysis of the deposited data

Results flagged for a closer look

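In groups of 4 or 5 arrays, 121 sets of values of named genes were examined for an array apart from the others, and 18 had one. Chance gives about 1 in 20 for values that vary freely, but most of these concern arrays raised to the floor of 20, beside which any value above it stands apart, so that rate does not hold for them. In untreated replicate 5 oc read 21.2, CycE 360.9, PDZ-GEF 119.6, Clbn 28.4 and vls 79, where the other arrays lay at or near the floor. In untreated replicate 2 Ote read 91 and boss 92.4, and in replicate 4 Skel read 519.5. In untreated replicate 3 Rca1 read 25.6, Slbp 151.2 and feo 20, below 4 arrays of 411 to 717, 322 to 412 and 399 to 687. In untreated replicate 1 Drsl5 read 5925, above 5301 to 5463. Among hsp-otd arrays PIG-O read 348.4 and ACXD 138.2 in replicate 2, Ppn 25.6 and otp 22.1 in replicate 3, robl62A 21.9 in replicate 1 and Pura 30.2 in replicate 4.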

How the results depend on the processing

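The main counts were 3610 probe sets called between hsp-otd and heat-shocked wild type, 1666 outside both wild types and 1088 that undid a heat change. The last was 608 with 1 variance factor per group and 1704 with the brighter untreated arrays alone, a choice made after seeing the data, and in both the cause was not tested. With 1 array left out at a time the counts ran from 2833 to 3805, from 1295 to 1802 and from 877 to 1265, and oc from 5.56 to 7.34 on the log2 scale. A replicate block gave 3171, 1657 and 756 and an oc value of 6.495 (the numbers do not pair the arrays, since deviations of same-numbered hsp-otd and heat-shocked arrays correlated at -0.0656 to 0.00211). Of the called probe sets 53.8% were higher, 64.5% with median scaling and 92.8% without normalization. Without normalization 13 named genes were above rather than below heat-shocked wild type, none past the threshold, and the cause was not tested: Lim1 by 0.41, opa 0.15, eve 0.39, nAChRbeta1 0.27, Actn 0.22, Pxn 0.25, Cdk4 0.29, PolA1 0.25, grim 0.083, brk 0.19, Egfr 0.14, Gapdh2 0.33 and SPARC 0.52. These lie below the shift of all probe sets by 0.676. Of 108 named probe sets 13 no longer passed without replicate 2 of heat-shocked wild type and 8 without replicate 3. At most 6 were lost with any other array left out. Of 46 leading genes outside both wild types, 35 remained so with the brighter untreated arrays alone and 45 with the dimmer ones.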

Other observations

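EGF, FGF and Dpp signalling genes had 6 higher and 6 lower of 27 (22.2% each way, median 0.16). The count of higher genes was 3 without replicate 3 of heat-shocked wild type, and without normalization 14 were higher and 1 lower. The BMP ligand gene gbb rose by 0.85 and undid a fall under heat, while the repressor gene brk and the receptor gene Egfr fell by 0.65 and 0.76 and lay below both wild types. Against the brighter untreated arrays alone brk was still called (-0.70) but Egfr was not (-0.10, adjusted p = 0.749). Antimicrobial and immune genes had 1 higher and 3 lower of 21. Besides Drsl5, the antifungal peptide gene Drs read 485.5 to 734.3 in hsp-otd, 1627 to 2072 in heat-shocked and 564.9 to 1293 in untreated wild type, and the receptor gene PGRP-LC was above the floor in the 4 hsp-otd arrays and in 0 of the 8 wild-type arrays. Axon guidance and adhesion genes had 3 higher and 2 lower of 23 (1 lower without replicate 2 or 3 of heat-shocked wild type or replicate 1, 2 or 4 of hsp-otd), with the phosphatase gene Ptp69D above both wild types (0.94 and 0.83).

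Midgut and digestive enzyme genes had 2 higher and 4 lower of 31. The counts were 4 and 4 without replicate 1 of hsp-otd, and 2 were lower without its replicate 3 or replicate 2 of heat-shocked wild type. The protease gene Jon99Cii read 741.9 to 807.4 in hsp-otd, between 1329 to 2469 in heat-shocked and 112.6 to 292.4 in untreated wild type. Glycolysis genes had 0 higher and 3 lower of 11 (1 lower with median scaling), and Gapdh2 was lower than in either wild type (-0.60 and -0.63). Apoptosis genes had 1 higher and 1 lower of 11, the caspase gene Dcp-1 (1.10) and the death gene grim (-0.66). The trachea list had 1 and 1 of 12, and the fat body and yolk list 0 and 1 of 8, and in both a count went to 0 or 2 when 1 array was left out.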
